A study of Mus musculus with 6 samples.

Results

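The protein genes of the mitochondrial genome were examined in the prefrontal cortex of mice that did or did not respond to ketamine. They were taken as every row of the deposited gene table whose symbol names a mitochondrially encoded subunit of NADH dehydrogenase, cytochrome c oxidase, ATP synthase or cytochrome b. This gave 8 genes of the 1375 in the table: mt-Nd1, mt-Nd2, mt-Nd4 and mt-Nd4l of complex I, mt-Cytb of complex III, mt-Co1 and mt-Co2 of complex IV, and mt-Atp6 of complex V. The genome holds 13 such genes, and the other 5 (mt-Nd3, mt-Nd5, mt-Nd6, mt-Co3 and mt-Atp8) were not analysed here.

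The samples were 3 responders (Res) and 3 nonresponders (NR), all male C57bl/6j siblings kept 3 per cage. Every mouse had been given ketamine, an NMDA receptor antagonist, at 10 mg/kg into the peritoneum, and the tissue was collected 24 hours later. The groups had been sorted by novelty suppressed feeding and forced swimming, so they are a behavioural class among treated mice, and no untreated mouse was among the samples. Each library came from 1 mouse, carried the same batch number, and was made from polyA RNA of whole prefrontal cortex. Age was not given in the sources used here.

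Mitochondria keep a small circular genome of their own. Both of its strands are read into long transcripts, which are cleaved mostly at the transfer RNA genes lying between the others, and the messenger RNAs then receive poly(A) tails. The proteins made from them form the core of respiratory complexes I, III, IV and V, each completed by subunits from nuclear genes, and they serve the oxidative ATP supply on which cortical neurons depend.

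The table was a selection. All 1375 genes had p-values under 0.05 in the authors' deposited table, and every gene was higher in responders. The 8 genes were therefore higher in responders by construction, and what follows describes by how much, in which mice and in what proportion to each other. Reads of the 8 genes numbered 607284, 663349 and 997902 in responders 1, 2 and 3, against 568180, 507143 and 642522 in nonresponders 1, 2 and 3. The total depth of the libraries is unknown, but the library scale within the authors' FPKM values lay between 14981505 and 19298950 reads. Responder 3 stood apart. It was the highest library in 7 of the 8 genes, as in 87.6% of all listed genes, so folds are given with and without it.

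Much of the sequence of some of these genes also stands in the nuclear genome, and this is shown here because it divides the 8 genes by level. The GENCODE M21 annotation, which gave all 8 genes the same positions as the table, holds a run of unprocessed pseudogenes on the minus strand of chromosome 1 that match a stretch from mt-Co1 to mt-Nd4. Gm28661, at chr1:24614885-24615565, matched mt-Co2 over 681 bases with 0 differences. Gm10925, at chr1:24613974-24614651, matched mt-Atp6 over 678 bases with 0 differences. Gm10222 matched mt-Nd4l over 294 bases and Gm28439 matched the first 876 of the 1378 bases of mt-Nd4, both with 0 differences. Gm29216 matched the last 492 bases of mt-Co1 with 6 differences. The end of mt-Co2 (chrMT:7634-7696, plus strand) and of its copy (chr1:24614885-24614944, minus strand) read as follows, with capitals for the stop codon that lies past the annotated end of the copy.
mt-Co2: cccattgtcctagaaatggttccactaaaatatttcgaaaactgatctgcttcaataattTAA
Gm28661: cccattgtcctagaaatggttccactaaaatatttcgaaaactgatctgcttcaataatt

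The copy of mt-Co1 differed only near its start. Bases 1054 to 1113 of mt-Co1 (chrMT:6381-6440, plus strand) and the first 60 bases of Gm29216 (chr1:24616138-24616197, minus strand) are printed with the differing bases in capitals.
mt-Co1: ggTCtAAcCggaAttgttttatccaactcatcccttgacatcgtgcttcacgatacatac
Gm29216: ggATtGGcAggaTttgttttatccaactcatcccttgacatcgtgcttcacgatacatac
Counted from 1 at the first base of mt-Co1, the differences were T1056A, C1057T, A1059G, A1060G, C1062A and A1066T, with the mitochondrial base first. After base 1066, to the end of mt-Co1, the sequences were the same.

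Windows of 50 bases were slid along each gene and looked for, on both strands, in every annotated transcript outside the mitochondrial chromosome. All 635 windows of mt-Co2 were found elsewhere, as were 629 of 632 in mt-Atp6 and 245 of 248 in mt-Nd4l. The shares were 51.1% of the windows of mt-Co1, 62.2% of mt-Nd4 and 8.19% of mt-Nd2. The shared windows of mt-Co1 stood in 3 annotated genes, and Gm29216 held 430 of the 765. Those of mt-Nd2 all stood in Gm13339, a gene not examined further here. No window of mt-Nd1 or mt-Cytb was found elsewhere. With windows of 100 bases the shares were 99.5% for mt-Co2, 99.5% for mt-Atp6, 98.5% for mt-Nd4l, 60.8% for mt-Nd4, 30.8% for mt-Co1 and 3.19% for mt-Nd2.

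Levels per length were divided along the same line. The 3 genes whose windows were nearly all shared had mean levels of 41.7 to 56.0 FPKM in responders and 29.0 to 34.9 FPKM in nonresponders. The other 5 had mean levels of 2584 to 15279 FPKM in responders and 1938 to 9535 FPKM in nonresponders. How the authors' counting treated reads that match several places is not given in the sources used here, and its part in the low levels of mt-Co2, mt-Atp6 and mt-Nd4l was not tested. The levels of these 3 genes are therefore uncertain, and so are the parts of mt-Co1 and mt-Nd4 that stand in a copy.

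**Figure D1:**
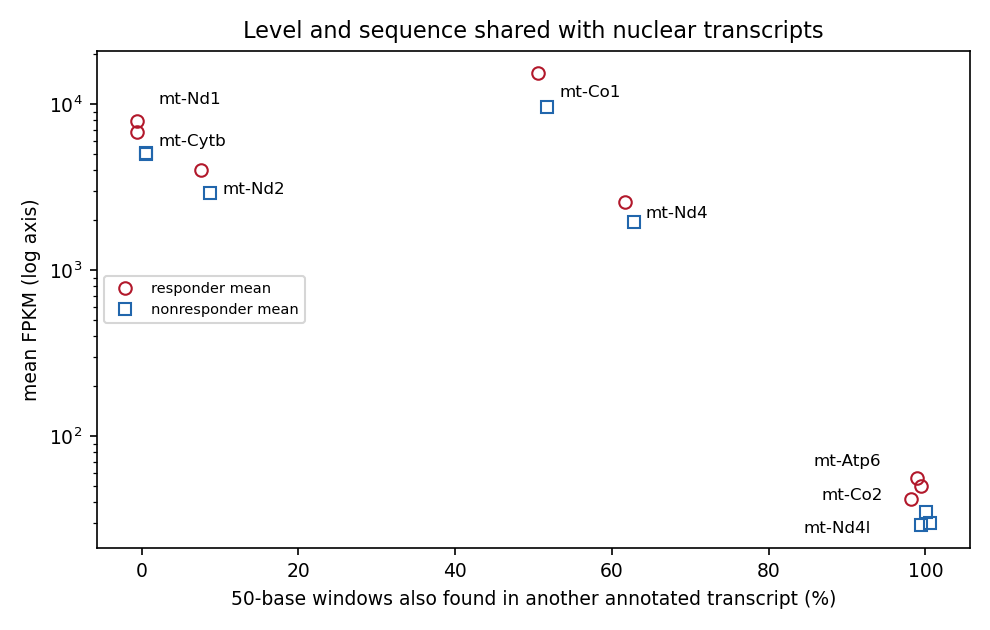
Mean FPKM (log axis) of each gene in responders (circles) and nonresponders (squares) against the percent of its 50-base windows that also occur in an annotated transcript outside the mitochondrial chromosome. Marks of the groups are set slightly apart sideways. mt-Co2, mt-Atp6 and mt-Nd4l stand at the lower right, with nearly all windows shared and means under 60 FPKM.

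Among the subunits of complex I, the enzyme that takes electrons from NADH, mt-Nd1 and mt-Nd2 encode membrane subunits that help to carry protons. mt-Nd1 (ENSMUSG00000064341, mm10 chrMT:2751-3707) stood at 5249, 6626 and 11952 FPKM in responders 1, 2 and 3, against 4830, 4886 and 5229 FPKM in nonresponders 1, 2 and 3. All responders lay above all nonresponders, but responder 1 by little, and responder 3 was far above the rest. The mean was 7942 ± 3540 FPKM in responders and 4982 ± 216 FPKM in nonresponders (SD, n = 3 each), a 1.59-fold difference that was 1.19-fold without responder 3. mt-Nd2 (ENSMUSG00000064345, chrMT:3914-4951) stood at 3060, 4196 and 4718 FPKM in responders, against 2769, 2846 and 3141 FPKM in nonresponders. The groups overlapped, with responder 1 below nonresponder 3. The mean was 3991 ± 848 FPKM in responders and 2919 ± 196 FPKM in nonresponders (SD, n = 3 each), 1.37-fold higher in responders and 1.24-fold without responder 3.

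mt-Nd4 encodes a further proton-pumping subunit of complex I. It (ENSMUSG00000064363, chrMT:10167-11544) stood at 2030, 2622 and 3100 FPKM in responders, against 1842, 1776 and 2196 FPKM in nonresponders. Responder 1 lay below nonresponder 3, so the groups overlapped. The mean was 2584 ± 536 FPKM in responders and 1938 ± 226 FPKM in nonresponders (SD, n = 3 each), a 1.33-fold difference, or 1.2002-fold without responder 3.

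mt-Nd4l, a small subunit of complex I, had a pattern of its own. It (ENSMUSG00000065947, chrMT:9877-10173) stood at 40.9, 45.9 and 38.2 FPKM in responders 1, 2 and 3, against 30.6, 26.5 and 30.01 FPKM in nonresponders, on 223, 223 and 170 reads in responders and 170, 135 and 172 reads in nonresponders. All responders lay above all nonresponders, and responder 3, the highest library elsewhere, was the lowest responder here. The mean was 41.7 ± 3.92 FPKM in responders and 29.0 ± 2.25 FPKM in nonresponders (SD, n = 3 each), a 1.44-fold difference that was 1.496-fold without responder 3.

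mt-Nd4l and mt-Nd4 share 1 messenger RNA in mammals, and their reading frames overlap by 7 bases, so reads over the join can belong to either. The join (chrMT:10137-10203, plus strand) is printed with the overlap in capitals, which holds the start codon of mt-Nd4 and the stop codon of mt-Nd4l.
Join: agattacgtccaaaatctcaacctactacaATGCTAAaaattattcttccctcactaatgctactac
Per length, mt-Nd4 nevertheless stood 49.6 to 81.1 times as high as mt-Nd4l across the 6 libraries, with the lowest ratio in responder 1 and the highest in responder 3.

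mt-Cytb encodes cytochrome b, the 1 mitochondrial subunit of complex III, which passes electrons on to cytochrome c. It (ENSMUSG00000064370, chrMT:14145-15288) stood at 5400, 6724 and 8255 FPKM in responders, against 4915, 4897 and 5474 FPKM in nonresponders. Responder 1 lay just under nonresponder 3. The mean was 6793 ± 1429 FPKM in responders and 5095 ± 328 FPKM in nonresponders (SD, n = 3 each), 1.33-fold higher in responders, and 1.19-fold without responder 3. The reading frames of mt-Cytb and mt-Nd4 end in a single T, and the poly(A) tail supplies the rest of the stop codon, so a polyA library takes in these messengers with the stop complete. The last 30 bases of mt-Cytb (chrMT:15259-15288, plus strand) and of mt-Nd4 (chrMT:11515-11544, plus strand) show this base in capitals.
mt-Cytb: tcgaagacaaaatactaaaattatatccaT
mt-Nd4: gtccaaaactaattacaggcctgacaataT

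Complex IV, cytochrome c oxidase, hands the electrons to oxygen, and mt-Co1 and mt-Co2 encode core subunits of it. mt-Co1 (ENSMUSG00000064351, chrMT:5328-6872), the highest of the 8 per length, averaged 15279 ± 7241 FPKM in responders and 9535 ± 609 FPKM in nonresponders (SD, n = 3 each). Its 3 responders, at 10273, 11984 and 23582 FPKM, lay above the nonresponders, at 9521, 8932 and 10150 FPKM, although responder 1 exceeded nonresponder 3 by little. mt-Co2 (ENSMUSG00000064354, chrMT:7013-7696) stood at 31.5, 40.0 and 79.4 FPKM in responders, against 28.6, 26.1 and 34.8 FPKM in nonresponders, on 307 to 814 reads per library. Its groups overlapped, since responder 1 lay below nonresponder 3. The folds were 1.60 for mt-Co1 and 1.68 for mt-Co2 with all mice, and 1.167 and 1.196 without responder 3.

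mt-Atp6, the subunit of ATP synthase (complex V) that forms the proton channel with the membrane ring, was the 1 listed mitochondrial gene of its complex. It (ENSMUSG00000064357, chrMT:7927-8607) stood at 37.3, 43.7 and 87.1 FPKM in responders, against 33.9, 31.6 and 39.2 FPKM in nonresponders, on 370 to 889 reads. Responder 1 again lay below nonresponder 3. The mean was 56.0 ± 27.1 FPKM in responders and 34.9 ± 3.88 FPKM in nonresponders (SD, n = 3 each), a 1.61-fold difference that was 1.16-fold without responder 3.

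**Figure D2:**
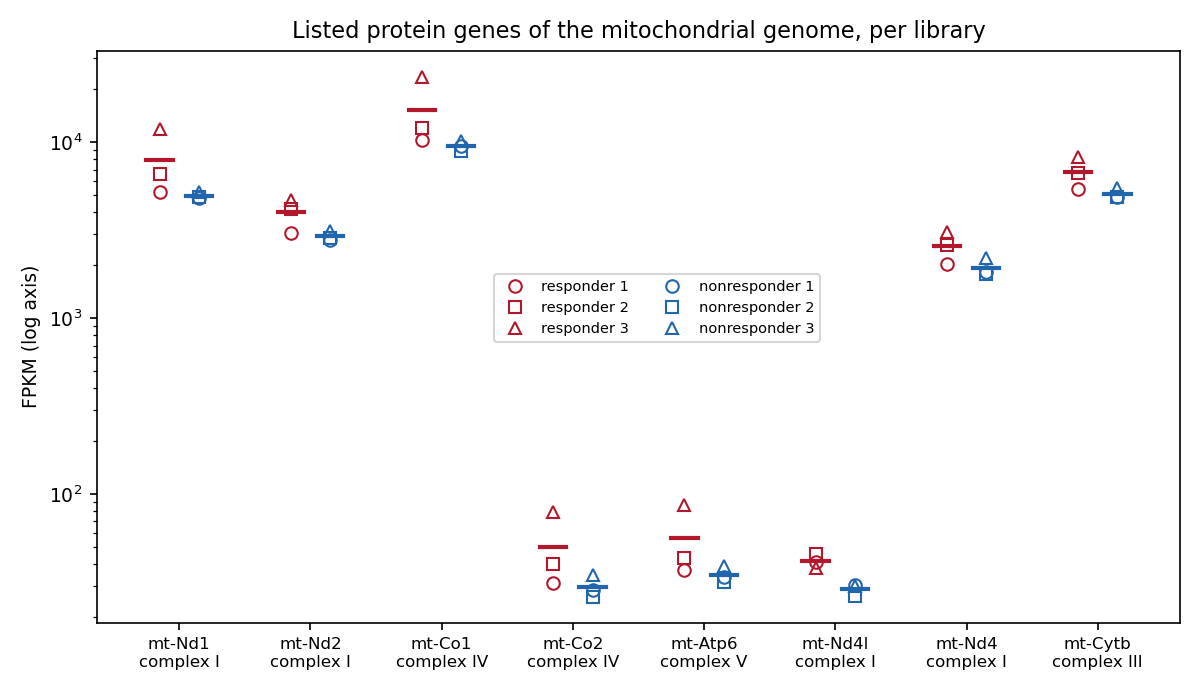
FPKM (log axis) of the 8 genes in map order, with each library as a point, responders on the left of each pair and nonresponders on the right, and group means as bars. Responder 3 is the highest library in 7 genes and the lowest responder in mt-Nd4l, and the groups do not overlap in mt-Nd1, mt-Co1 and mt-Nd4l.

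Summed over the listed genes of a complex, levels were 1.48-fold higher in responders for complex I (4 genes), 1.33-fold for complex III (1 gene), 1.60-fold for complex IV (2 genes) and 1.61-fold for complex V (1 gene). Without responder 3 the folds were 1.21, 1.19, 1.17 and 1.16 in the same order of complexes. Complexes IV and V had the larger folds with that mouse, and without it the folds lay close together. The sum of complex IV was nearly all mt-Co1, which had 10273 of 10304 FPKM in responder 1. That of complex V was mt-Atp6 alone, whose level is uncertain. mt-Nd1 and mt-Nd2 of complex I differed by 1.59-fold and 1.37-fold, so the folds with all mice did not run by complex.

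None of the 8 genes passed an adjusted p of 0.05 in the authors' deposited table, where 1.38% of the listed genes did. In that table their adjusted p-values lay between 0.177 for mt-Nd1 and 0.229 for mt-Nd4. In edgeR's quasi-likelihood test on the deposited counts, 1 of the 8 had an unadjusted p under 0.05, against 26.5% of the listed genes, and 0 an adjusted p under 0.05, against 0% of the listed genes. DESeq2 gave 5 of the 8 at an unadjusted p under 0.05, against 42.5%. The groups did not overlap in 3 of the 8, against 73.5% of the listed genes. With responder 3 left aside, responders 1 and 2 were above all nonresponders in 3 of the 8, against 74.1%. As the table holds genes picked by p-value in these mice, these shares describe the 8 genes among picked genes.

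By edgeR's quasi-likelihood test, the gene past an unadjusted 0.05 was mt-Nd4l, with a log2 difference of 0.52 ± 0.22 (SE) and an unadjusted p of 0.0435. Its reads are few and its counts uncertain, since nearly all of its sequence also stands in a nuclear copy. The log2 differences of the other 7 ran from 0.41 ± 0.20 (SE) for mt-Cytb to 0.75 ± 0.36 (SE) for mt-Co2, with unadjusted p-values between 0.0512 and 0.0835 by the same edgeR fit. In the edgeR fit without responder 3, 5 of the 8 had an unadjusted p under 0.05, against 60.2% of the listed genes, namely mt-Nd1, mt-Nd2, mt-Nd4, mt-Nd4l and mt-Cytb, and none had an adjusted p under 0.05, against 5.45%. Adjusted over the listed genes alone, which were picked by p-value, mt-Nd1, mt-Nd2, mt-Nd4 and mt-Nd4l (4 of the 8) were under 0.05 in that edgeR fit, against 41% of the listed genes. mt-Nd4l was then at 0.58 ± 0.16 (SE) on the log2 scale, with an unadjusted p of 0.000636 and an adjusted p of 0.0811 by edgeR. mt-Co1 without responder 3 was at 0.22 ± 0.12 (SE) on the log2 scale, with an unadjusted p of 0.0689 by edgeR. Without responder 1, in turn, 7 of the 8 had an unadjusted p under 0.05 by edgeR, against 57.2% of the listed genes, mt-Nd4l being the exception.

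Responder 3 differed from the other libraries in the proportions of the 8 genes as well as in their level. Relative to the nonresponder mean, it stood 2.66-fold higher for mt-Co2, 2.50-fold for mt-Atp6, 2.47-fold for mt-Co1 and 2.40-fold for mt-Nd1. For mt-Cytb, mt-Nd2 and mt-Nd4 it stood 1.62-fold, 1.62-fold and 1.60-fold higher, and for mt-Nd4l 1.32-fold. The step between 2.40-fold and 1.62-fold runs across complex I and across the map, since mt-Nd2 lies between mt-Nd1 and mt-Co1. The groups of genes were seen in the values and were not tested.

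Ratios of FPKM within a library do not depend on its scale. They restate the same division, which was itself read from the values of responder 3, and are no separate support for it. The ratio of mt-Co1 to mt-Cytb was 2.86 in responder 3, against 1.78 to 1.94 in the other 5 libraries. That of mt-Nd1 to mt-Nd2 was 2.53 in responder 3, against 1.58 to 1.74 in the others. Genes of the same group kept their ratio in all 6 libraries, which for responder 3 follows from how they were grouped. mt-Nd2 to mt-Cytb lay between 0.563 and 0.624, mt-Nd4 to mt-Cytb between 0.363 and 0.401, and mt-Nd1 to mt-Co1 between 0.507 and 0.553. mt-Co2 and mt-Atp6, low as they were, also kept a ratio of 0.826 to 0.916.

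**Figure D3:**
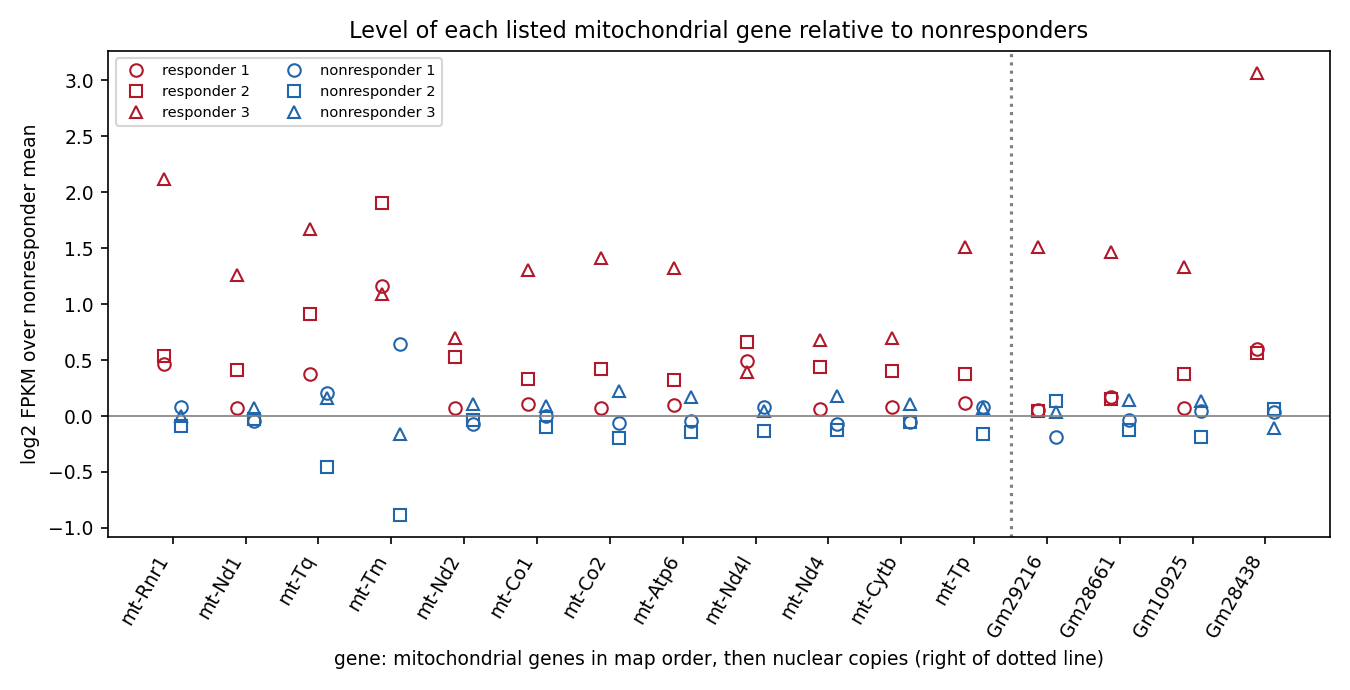
log2 ratio of FPKM over the nonresponder mean for the 12 listed genes of the mitochondrial chromosome in map order and, right of the dotted line, the 4 listed nuclear copies. Each mark is a library, responders left of nonresponders. The triangles of responder 3 stand at 1.26 to 1.41 in mt-Nd1, mt-Co1, mt-Co2 and mt-Atp6 and at 0.68 to 0.70 in mt-Nd2, mt-Nd4 and mt-Cytb.

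As shares of the reads of the 8 genes, mt-Co1 held 47.9%, 45.6% and 54.7% in responders 1, 2 and 3, against 48.4%, 46.7% and 47.1% in nonresponders 1, 2 and 3. mt-Cytb held 18.7%, 19.0% and 14.2% in responders, against 18.5%, 19.0% and 18.8% in nonresponders. mt-Nd1 held 15.2% to 17.2% in responders and 15.0% to 15.8% in nonresponders, mt-Nd2 7.35% to 10.7% in responders and 9.45% to 10.0% in nonresponders, and mt-Nd4 6.41% to 8.90% in responders and 8.29% to 9.09% in nonresponders. mt-Nd4l held 0.0367%, 0.0336% and 0.0170% in responders 1, 2 and 3, against 0.0299%, 0.0266% and 0.0268% in nonresponders, so responders 1 and 2 lay above the nonresponders and responder 3 below. The groups overlapped in the share of every gene. Over the 8 shares, exact two-sided permutation p-values lay between 0.4 and 0.9, all 0.9 after Benjamini-Hochberg adjustment, where 3 against 3 libraries can give no less than 0.1. These p-values cannot show that the composition is alike.

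**Figure D4:**
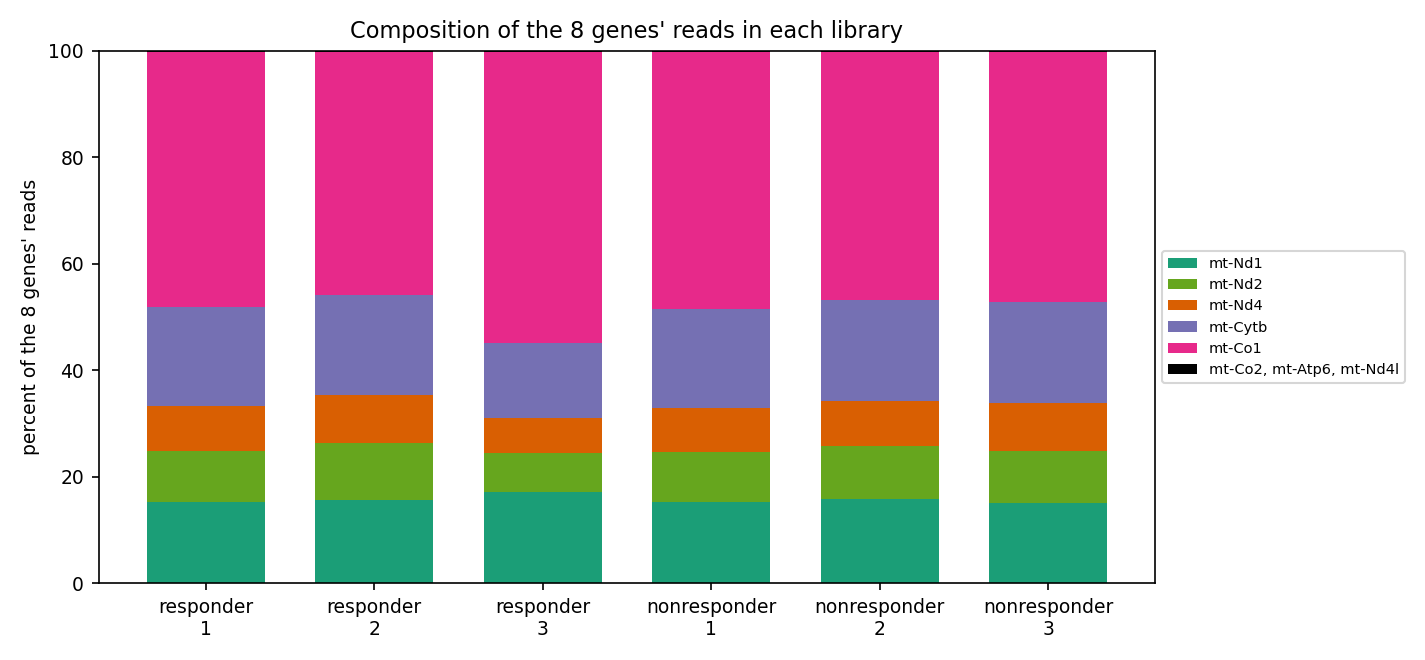
Percent of the reads of the 8 genes held by each gene, 1 bar per library, responders on the left and nonresponders on the right. mt-Co1 takes 54.7% in responder 3 and 45.6% to 48.4% in the others. mt-Co2, mt-Atp6 and mt-Nd4l together are too thin to be seen at the top.

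Together the 8 genes held 24.6%, 27.3% and 28.6% of the listed reads in responders 1, 2 and 3, against 25.1%, 25.5% and 27.4% in nonresponders 1, 2 and 3. The mean difference was 0.839 percentage points with all mice and -0.0450 without responder 3. The share of the 8 genes among listed reads thus differed between the groups by less than its spread of 2.02 (SD) in responders and 1.22 (SD) in nonresponders. Against the authors' library scale, which covers more than the listed genes, the 8 genes made up 3.31%, 4.06% and 6.66% in responders, against 3.04%, 2.95% and 3.33% in nonresponders.

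Set among all listed genes, the 8 had a median log2 difference of 0.60, against 0.57 over the listed genes with a ratio. Without responder 3 the medians were 0.26 for the 8 genes and 0.26 for the listed genes. Scaling the counts by trimmed means over the listed genes (TMM) moved the median of the listed genes to 0.0059 and that of the 8 genes to 0.0706 on the log2 scale. Under it, as under DESeq2 size factors, 5 of the 8 lay above 0, and mt-Nd2, mt-Nd4 and mt-Cytb lay below. All 8 genes were thus higher in responders on the authors' scale. By edgeR with TMM none of the 8 was told apart from the centre of the listed genes (unadjusted p between 0.396 and 0.832). In that fit the log2 differences were -0.070 ± 0.144 for mt-Nd2, -0.109 ± 0.140 for mt-Nd4 and -0.113 ± 0.127 for mt-Cytb (SE). Those of the other 5 ran from 0.055 ± 0.252 for mt-Nd4l to 0.141 ± 0.173 for mt-Co2 (SE). Without responder 3 the log2 ratios of mt-Nd2, mt-Nd4 and mt-Cytb on the authors' scale were 0.31, 0.26 and 0.25, beside the listed median of 0.26.

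**Figure D5:**
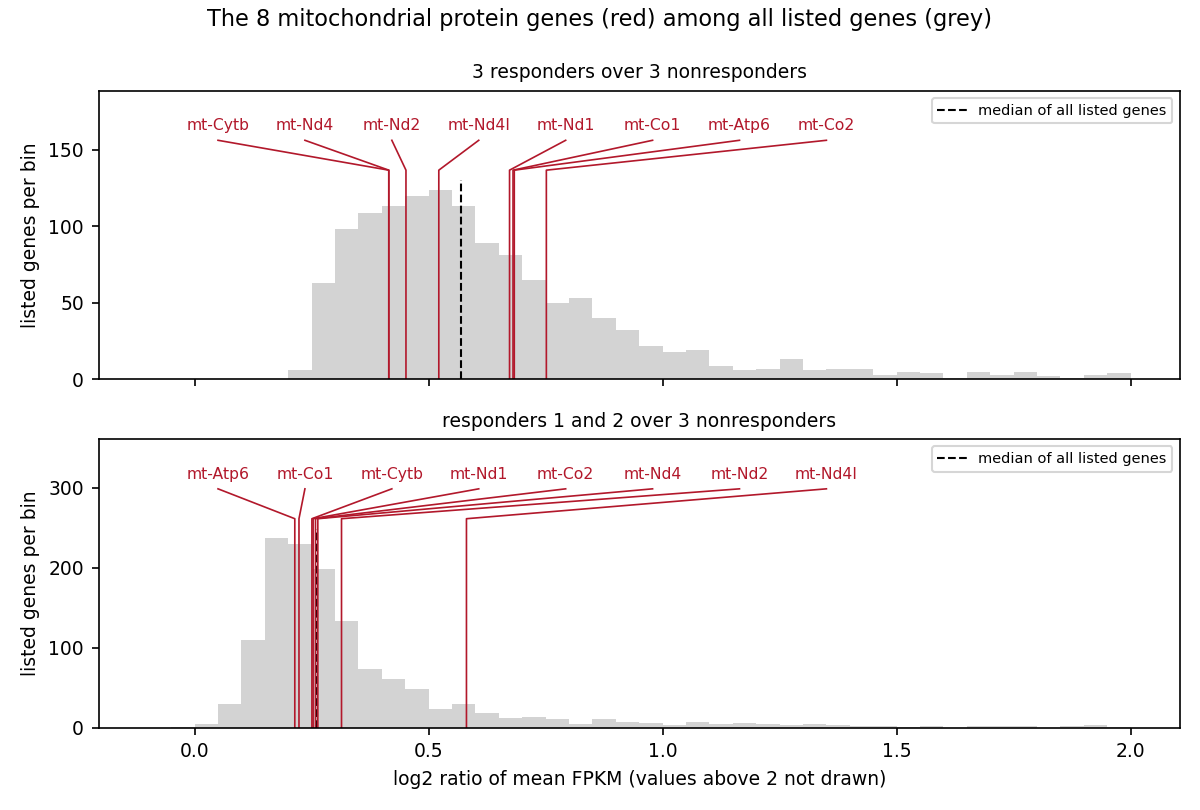
Number of listed genes (grey bars, 0.05 per bin) by log2 ratio of mean FPKM, with the 8 mitochondrial genes as red lines and the median of the listed genes as a dashed line. The upper panel has 3 responders over 3 nonresponders and the lower panel leaves out responder 3. The medians are 0.57 and 0.26, and mt-Nd4l is, of the 8, the farthest above the median in the lower panel. Values above 2 are not drawn.

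The other listed products of the mitochondrial genome were 1 ribosomal RNA and 3 transfer RNAs. mt-Rnr1, the 12S RNA of the small mitochondrial ribosomal subunit, stood at 3262, 3427 and 10239 FPKM in responders 1, 2 and 3, against 2505, 2222 and 2365 FPKM in nonresponders. All responders lay above all nonresponders, as in 73.5% of the listed genes. Responder 3 was 4.33-fold above the nonresponder mean, more than any of the 8 protein genes. By edgeR's quasi-likelihood test its log2 difference was 1.26 ± 0.44 (SE), with an unadjusted p of 0.0246 and an adjusted p of 1. Without responder 3 it was 0.50 ± 0.09 (SE), with an adjusted p of 0.00123 by edgeR. In that fit 5.45% of the listed genes had an adjusted p under 0.05. As mt-Rnr1 was listed by its p-value in these mice, this value is no separate support for a difference. Within the listed mitochondrial reads, mt-Rnr1 made up 8.59%, 7.45% and 12.8% in responders, against 7.28%, 6.69% and 6.34% in nonresponders. The groups did not overlap in this share (exact two-sided permutation p = 0.1, the smallest possible, n = 3 each). All rows in the share were listed by p-value in these mice with responders higher, so the share is no separate support either. The other ribosomal RNA, mt-Rnr2, was not analysed here.

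mt-Tp, the proline transfer RNA on the minus strand, stood at 857, 1026 and 2258 FPKM in responders, against 834, 705 and 831 FPKM in nonresponders. Its responders lay above its nonresponders, as in 73.5% of the listed genes, with responder 3 far above. mt-Tm, the methionine transfer RNA, had 31, 46 and 24 reads in responders, against 22, 7 and 13 reads in nonresponders, and mt-Tq, the glutamine transfer RNA, had 21, 27 and 42 reads in responders, against 19, 11 and 19 reads in nonresponders. Few reads stand behind the values of mt-Tm and mt-Tq. mt-Tm ends at the base before mt-Nd2 begins, so reads over that border can count for either. The libraries were made from polyA RNA, and the strand setting is not given in the sources used here. Whether the reads of mt-Rnr1 and of these transfer RNA genes came from the mature RNAs or from longer transcripts was not tested.

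Of the copies on chromosome 1, 4 were in the table. Gm28661, the copy of mt-Co2, had 431, 381 and 866 reads in responders 1, 2 and 3, against 382, 330 and 446 reads in nonresponders. The reads of mt-Co2 were 0.916 to 1.17 times those of this copy across the 6 libraries. Gm10925, the copy of mt-Atp6, had 553, 609 and 1083 reads in responders, against 552, 432 and 607 reads in nonresponders, and the reads of mt-Atp6 were 0.781 to 0.856 times as many. The near equal counts of gene and copy held in both groups.

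Gm29216, the copy of the end of mt-Co1, had 270, 240 and 607 reads in responders, against 233, 268 and 281 reads in nonresponders, so mt-Co1 had 884 to 1261 times as many. With the reads of the copy added, the log2 differences were 0.68 for mt-Co1, 0.74 for mt-Co2 and 0.69 for mt-Atp6, in place of 0.68, 0.75 and 0.68. Gm28438, the copy of mt-Nd3, differs from it by T3C, counted from the first base of mt-Nd3 with the mitochondrial base first. It had 45, 39 and 203 reads in responders, against 31, 29 and 29 reads in nonresponders, and responder 3 was 8.38-fold above the nonresponder mean. That ratio was above those of the 8 protein genes.

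The nuclear partners of these subunits were also in the table in part, on a list of 85 genes of respiratory complexes I to V. Of these, 27 were listed. In the authors' deposited table none passed by adjusted p. By edgeR 5 of the 27 had an unadjusted p under 0.05 with all mice, against 26.5% of the listed genes, and 12 without responder 3, against 60.2%. By adjusted p in edgeR 2 of the 27 were under 0.05 without responder 3, against 5.45%. Their median log2 difference was 0.66, and 0.18 without responder 3, beside 0.60 and 0.26 for the 8 mitochondrial genes. Cox4i1, a regulatory subunit of complex IV, stood at 214, 200 and 470 FPKM in responders, against 192, 178 and 171 FPKM in nonresponders. Ndufa12, an accessory subunit of complex I, stood at 34.1, 35.1 and 82.4 FPKM in responders, against 29.4, 26.2 and 27.4 FPKM in nonresponders. Atp5b, the catalytic beta subunit of ATP synthase, stood at 223, 225 and 322 FPKM in responders, against 207, 197 and 191 FPKM in nonresponders. In all 3 examples the groups did not overlap, as in 16 of the 27, against 73.5% of the listed genes. Responder 3 was highest in all 27, against 87.6% of the listed genes.

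Genes that serve the expression of the mitochondrial genome were listed in part. Those listed were 1 of 19 genes of DNA upkeep and transcription, 3 of 21 of RNA processing and decay, 1 of 13 of translation, and 1 of 14 regulators of biogenesis. The whole table holds 1375 genes, beside 14156 implied tests. None of these genes passed by adjusted p in the authors' deposited table, against 1.38% of the listed genes. None passed in edgeR with all mice, against 0%. Tfam, which packages mitochondrial DNA and starts its transcription, stood at 7.81, 8.30 and 11.4 FPKM in responders, against 7.08, 6.49 and 7.19 FPKM in nonresponders. All responders lay above all nonresponders, as in 73.5% of the listed genes.

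Hsd17b10, a subunit of the mitochondrial RNase P that frees transfer RNAs from the long transcripts, stood at 13.1, 17.7 and 25.2 FPKM in responders, against 12.6, 10.99 and 12.9 FPKM in nonresponders. Ptcd2, which in mice takes part in the maturation of the mt-Cytb transcript, stood at 14.6, 18.7 and 25.9 FPKM in responders, against 12.9, 14.01 and 14.2 FPKM in nonresponders. In both the order was responder 3, 2 and 1 above the nonresponders, as in mt-Nd1 and Tfam. Such features were common, since the groups did not overlap in 73.5% of the listed genes and responder 3 was highest in 87.6%. Tufm, the mitochondrial elongation factor Tu, had a log2 difference of 0.38, and Slirp, which binds mitochondrial messengers with Lrpprc, had 2 to 71 reads per library. Gabpa, part of a transcription factor of nuclear respiratory genes, stood at 5.19, 5.42 and 4.53 FPKM in responders, against 4.16, 3.51 and 3.82 FPKM in nonresponders, with responder 3 the lowest responder, as in mt-Nd4l. Without responder 3, Gabpa was the 1 of these 6 genes with an adjusted p under 0.05 by edgeR, against 5.45% of the listed genes. Its adjusted p by edgeR was 0.0331, with a log2 difference of 0.47. Gabpa was itself listed by its p-value in these mice, so this is no separate support for a difference.

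The nuclear genes whose pattern over the 6 libraries was most like the mean of the 8 were Tspan12, Spg21, Ankrd49, Rgs2 and Selenop. Likeness was the root mean square difference of log2 FPKM, centred on the nonresponder mean, and lay between 0.0447 and 0.0582 for these, among 1084 nuclear genes with at least 100 reads in every library. Tspan12 encodes a tetraspanin, Rgs2 a regulator of G-protein signalling and Selenop the selenium carrier selenoprotein P. Selenop stood at 42.4, 52.1 and 79.3 FPKM in responders, against 38.4, 38.4 and 39.6 FPKM in nonresponders. The 8 genes themselves lay 0.118 (mt-Cytb) to 0.297 (mt-Nd4l) from their own mean, with 12.5% and 85.98% of the nuclear genes lying nearer, although each of the 8 enters that mean and the nuclear genes do not.

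Markers of cell types were listed in part, and like all listed genes they were higher in responders. Of 10 astrocyte markers 4 were in the table, with summed levels of 245 to 333 FPKM in responders and 192 to 217 FPKM in nonresponders. Microglia had 5 of 10, at 94.96 to 192 FPKM in responders and 72.1 to 84.6 FPKM in nonresponders, and leptomeningeal cells 7 of 10, at 14.7 to 23.3 FPKM in responders and 8.28 to 10.96 FPKM in nonresponders. Neurons had 1 of 12, Slc17a6, at 3.18 to 4.401 FPKM in responders and 1.80 to 2.74 FPKM in nonresponders. Ependymal and choroid plexus cells had 1 of 7, Kl, at 0.525 to 0.538 FPKM in responders and 0.256 to 0.474 FPKM in nonresponders. None of the markers of oligodendrocytes, endothelium or blood was among the listed genes. With 1 neuronal marker, the tissue label could not be checked against the neurons of the cortex. In these bulk samples, fewer cells of a type and less RNA per cell cannot be told apart, and the part of cell makeup in the mitochondrial values was not tested.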

How the data were processed

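PolyA RNA of prefrontal cortex was sequenced in 6 libraries, 1 per mouse, with a SMARTER library kit per the labels' protocols, so p-values cover the spread between mice and technical spread. Per the submitters' processing notes the build was mm10, and the sources used here do not name the aligner, counter or strand setting. The authors deposited whole read counts per gene. The deposited FPKM values equalled count over gene length and over 1 scale number per library. The authors' deposited log2 fold change, nonresponders over responders, was below 0 in all 1375 genes, and the deposited p-value and adjusted p-value were copied only. A further 6 sample columns with names unlike any label were left out.

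Computed here were log2 ratios of mean FPKM (no pseudocount, no filter), responders over nonresponders, and edgeR 4.0.16 quasi-likelihood tests (robust, two-sided) on all 1375 genes with the authors' scale as library size. Adjustment (Benjamini-Hochberg) counted 14156 tests, the number implied by the deposited adjusted p-values, of which 273 of 329 genes gave a whole rank within 0.01. Genes outside the table were taken as not passing. DESeq2 1.42.0, other scalings, a filter (10 reads in 3 libraries), a replicate block and leaving out each mouse were alternatives. The edgeR step was tested on simulated data with capped dispersions and no outlying library. That check does not cover a library like responder 3. The members and lists were chosen with earlier results of these data known, so no p-value is given for sums over the 8 genes, although the design foresaw exact tests of them. Named genes were the 8, other mitochondrial rows, their annotated nuclear copies, at most 4 per mitochondrial list with the smallest deposited p-value, and the 5 nuclear genes most alike; examples were drawn from these. Sequences came from GENCODE M21 transcripts (GRCm38, the same assembly as mm10), in which 1373 gene identifiers were found, 1323 with the same position.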

Additional observations from a re-analysis of the deposited data

How the results depend on the processing

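The number of the 8 genes with an unadjusted p under 0.05 by edgeR, 1 as reported, was 0 with TMM, 0 with DESeq2 size factors, 0 with the replicate block and 5 by DESeq2's test, and ran from 0 to 7 when each mouse was left out. It stayed at 1 with mitochondrial reads taken out of the scale and with low counts left out. By adjusted p it was 0 in all 13 alternatives, but adjusted over the listed genes alone, with each mouse left out, it ran from 0 to 4, with the 4 without responder 3. Over the 3 same-numbered pairs, deviations from the group means had correlations of -0.063, -0.055 and -0.033. Differently numbered pairs lay between -0.033 and 0.101. No pairing was seen in these values, which come from 3 mice per group and cannot show that there was none. The median log2 difference was 0.0706 with TMM, 0.0752 with DESeq2 size factors and 0.26 to 0.75 with each mouse left out. Directions turned under TMM and DESeq2 size factors in mt-Nd2 (-0.0701 and -0.0661), mt-Nd4 (-0.11 and -0.10), mt-Cytb (-0.11 and -0.11) and so complex III (-0.11 and -0.11), and under TMM in complex I (-0.00062). In mt-Nd2, mt-Nd4 and mt-Cytb the turned values were smaller than their SE by edgeR. These scalings centre on listed genes, all picked as higher in responders. With each mouse left out, the difference in the share of listed reads ran from -0.0450 to 1.94 percentage points. Differences in the shares within the 8 genes then ran from -1.28 to 0.414 points for mt-Nd2, -0.619 to 3.92 for mt-Co1, -0.00132 to 0.00659 for mt-Atp6, -0.00244 to 0.00740 for mt-Nd4l, -1.14 to 0.102 for mt-Nd4 and -2.34 to 0.0514 for mt-Cytb. Those of mt-Nd4l turned without responder 1 or 2, and the others turned without responder 3. Adding the reads of the nuclear copies, and adjusting over the listed genes with mice left out, were chosen after seeing the data. Shared sequence and depths of 135 to 889 reads limit mt-Co2, mt-Atp6 and mt-Nd4l.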
